A study of Homo sapiens with 4 samples.

Results

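The small leucine-rich proteoglycans are secreted proteins of the extracellular matrix, and 8 of them are described here in human fibroblasts that carried an induced oncogene: lumican (LUM), decorin (DCN), biglycan (BGN), PRELP, osteoglycin (OGN), fibromodulin (FMOD), asporin (ASPN) and podocan (PODN). The genes were chosen by family membership together with measured values, since LUM and DCN were picked for being higher in the targeted cells than in the control cells of these same libraries. Their ratios to the control are therefore given as a description, with no test. Of the 8 genes, 6 had a row in the table of 12033 genes, and OGN and ASPN had no row among those used here. Of these 6 genes, 4 exceeded the table's lowest value in at least 1 library, LUM and BGN exceeded it in every library, and FMOD and PODN stood at it in all 4 libraries.

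The cells were BJ-indRAS G12V, human BJ fibroblasts immortalized with hTERT, in which the oncogene RAS G12V is switched on by 4-hydroxytamoxifen (4-OHT). All 4 libraries came from cells after 14 days of 4-OHT, transduced with a CRISPR-Cas9 vector, so that every group, the control included, carried active RAS and hTERT. The groups were the sgRNAs AP1-69 and AP1-71, here guide 69 and guide 71, which are 2 guides against the AP-1 motif of the enhancer Enh.AP1.OIS1, then sgRNA-FOXF1 against the coding gene that the labels name as the target of this enhancer, and finally the non-targeting control sgRNA-NT. Each group had 1 library of polyadenylated RNA from a transduced population, whose cells can carry different edits. No uninduced library was among the samples, so the levels describe RAS-induced cells only. The study reported that RAS drives these cells into senescence, a lasting growth arrest. It also reported that cells with either enhancer guide or the FOXF1 guide bypassed this arrest and proliferated more than non-targeting controls. The part of this difference in the ratios to sgRNA-NT was not tested.

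Levels are given in RPKM, which scales the reads of a gene to its length and to the size of the library and permits levels of different genes to be set side by side. The authors made the distributions of the 4 libraries equal by quantile normalization and raised every lower value to 1.0 RPKM, which is called the floor below. Where the control stands at the floor, its true level may be lower, so such a ratio is given as at least that large. With 1 library per group there is no replicate error and no test was run. The enhancer guides give the nearest thing to a repeat, and the log2 ratio of guide 71 to guide 69 had an SD of 0.29 over the 7596 genes that averaged at least 2 RPKM, a spread that holds any difference between the guides as well as technical error. The read depth of the libraries is unknown from these values. In bulk RNA, fewer cells of a type and less RNA per cell cannot be told apart.

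Small leucine-rich proteoglycans have a curved protein core built of leucine-rich repeats, which binds the surface of collagen fibrils and limits how fibrils join and thicken. Most carry glycosaminoglycan chains: decorin and biglycan carry chondroitin or dermatan sulfate, and lumican and fibromodulin carry keratan sulfate. They also bind growth factors and cell-surface receptors, decorin being known for binding TGF-beta and for damping EGFR and MET, and soluble biglycan for signalling through Toll-like receptors. In skin and other connective tissues, fibroblasts are their main source.

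LUM (ENSG00000139329) was higher in every targeted library than in the control. Its level was 8.3 RPKM with guide 69, 7.9 RPKM with guide 71 and 13.1 RPKM with sgRNA-FOXF1, against 2.3 RPKM with sgRNA-NT. The enhancer guides lay close together, sgRNA-FOXF1 was the highest library and sgRNA-NT the lowest. Relative to sgRNA-NT, LUM was 3.61-fold higher with guide 69, 3.43-fold higher with guide 71 and 5.70-fold higher with sgRNA-FOXF1. The corresponding log2 ratios were 1.85, 1.78 and 2.51.

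Among the 7596 genes compared, LUM held rank 14 from the top with guide 69, rank 26 with guide 71 and rank 6 with sgRNA-FOXF1. Genes at least 2-fold higher than with sgRNA-NT made up 1.34% of those compared with guide 69, 3.80% with guide 71 and 3.20% with sgRNA-FOXF1. LUM is among these genes in each comparison, and as it was selected on that basis nothing is read from its place there. The 3 comparisons share the single sgRNA-NT library, so an error in that library would enter all of them, and 68 genes (0.895% of those compared) were at least 2-fold higher in all 3. Between targeted libraries, which do not depend on sgRNA-NT, LUM was 1.58-fold higher with sgRNA-FOXF1 than with guide 69 and 1.66-fold higher than with guide 71, log2 ratios of 0.66 and 0.73. The log2 ratio of guide 71 to guide 69 was -0.07, within the spread of 0.29. In its place among all levels, LUM was exceeded by 3764 genes with guide 69, 3889 with guide 71 and 2737 with sgRNA-FOXF1, against 7107 with sgRNA-NT, out of 12033.

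**Figure D1:**
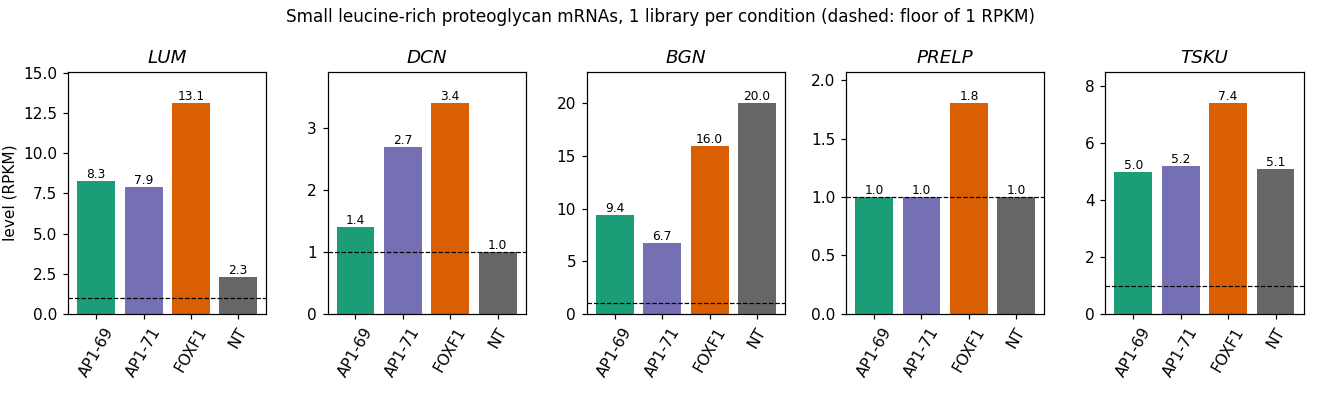
Level of LUM, DCN, BGN, PRELP and TSKU in RPKM, with 1 panel per gene on its own linear axis from 0, 1 bar per library (AP1-69 is guide 69 and AP1-71 is guide 71) and the floor of 1.0 RPKM as a dashed line. LUM lies at 7.9 to 13.1 RPKM in the targeted libraries and 2.3 RPKM with sgRNA-NT, DCN leaves the floor in the targeted libraries only, and BGN is highest with sgRNA-NT at 20.0 RPKM.

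DCN (ENSG00000011465) was above the floor in the targeted libraries and at the floor in the control. Its level was 1.4 RPKM with guide 69, 2.7 RPKM with guide 71 and 3.4 RPKM with sgRNA-FOXF1, against 1.0 RPKM with sgRNA-NT. DCN was thus at least 1.4-fold higher with guide 69, at least 2.7-fold with guide 71 and at least 3.4-fold with sgRNA-FOXF1. Of the 12033 genes, 213 (1.77%) shared this pattern of standing at the floor with sgRNA-NT and above it in all 3 targeted libraries.

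The enhancer guides differed for DCN more than for LUM. DCN was 1.93-fold higher with guide 71 than with guide 69, a log2 ratio of 0.95. At least 2-fold differences between these guides were seen in 0.303% of genes for higher and 0.197% for lower levels with guide 71, and DCN stayed just under that line. DCN was 2.43-fold higher with sgRNA-FOXF1 than with guide 69 and 1.26-fold higher than with guide 71. All 4 levels lie in the low range of the table, where a step of 0.1 RPKM is a large part of the value, and DCN entered the comparison of 7596 genes with a mean just over the minimum because of its levels in the targeted libraries.

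LUM and DCN lie side by side on the minus strand of chromosome 12 (GRCh37, chr12:91496406-91505271 for LUM and chr12:91534261-91576994 for DCN), 28989 bp apart. The neighbouring family members EPYC (epiphycan) and KERA (keratocan) had no row among those used here. LUM exceeded DCN in every library, by 5.93-fold with guide 69, 2.93-fold with guide 71 and 3.85-fold with sgRNA-FOXF1, against at least 2.3-fold with sgRNA-NT, where DCN was at the floor.

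Of the genes with a row within 2 Mb around the pair, a window set with the values known, none of the other 6 had a log2 ratio to sgRNA-NT above 0.11. DUSP6, a phosphatase that inactivates ERK, was 54.2 RPKM with guide 69, 68.2 RPKM with guide 71 and 33.7 RPKM with sgRNA-FOXF1, against 80.8 RPKM with sgRNA-NT. BTG1, an antiproliferative factor, was 7.8, 8.3 and 7.5 RPKM in the same targeted libraries, against 9.9 RPKM with sgRNA-NT. Both were lower in all 3 targeted libraries, opposite in direction to LUM. ATP2B1, a plasma membrane calcium pump, had log2 ratios of -0.12, -0.16 and 0.00, and the centrosomal gene POC1B had 0.11, 0.11 and -0.89. LINC00936 was at the floor throughout, and EEA1 did not exceed 1.1 RPKM.

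BGN (ENSG00000182492, GRCh37 chrX:152760438-152775004, plus strand) ran in the other direction. Its level was 9.4 RPKM with guide 69, 6.7 RPKM with guide 71 and 16.0 RPKM with sgRNA-FOXF1, against 20.0 RPKM with sgRNA-NT. Both enhancer libraries lay well below sgRNA-NT, and sgRNA-FOXF1 lay nearer to it. BGN was 2.13-fold lower with guide 69, 2.99-fold lower with guide 71 and 1.25-fold lower with sgRNA-FOXF1, log2 ratios of -1.09, -1.58 and -0.32.

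Genes at least 2-fold lower than with sgRNA-NT made up 3.30% of those compared with guide 69, 6.38% with guide 71 and 4.96% with sgRNA-FOXF1. At least 2-fold lower in all 3 targeted libraries were 130 genes (1.71% of those compared). BGN held rank 197 from the bottom with guide 69, 137 with guide 71 and 1859 with sgRNA-FOXF1. It was 1 of 48 genes (0.632%) lower by at least 2-fold with both enhancer guides and less than 1.5-fold lower with sgRNA-FOXF1. Between targeted libraries, BGN was 1.70-fold higher with sgRNA-FOXF1 than with guide 69 and 2.39-fold higher than with guide 71. The same order of libraries was seen in FOXF1 mRNA, which was 11.1, 7.8 and 25 RPKM with guide 69, guide 71 and sgRNA-FOXF1, against 29.6 RPKM with sgRNA-NT, and in HRAS, which was 446.4, 427.4 and 707.6 RPKM against 829.4 RPKM. The study reported effective knockout of FOXF1 by western blot in cells with the FOXF1 guide. The FOXF1 mRNA level in that library therefore does not give its protein level. How many of all genes share this order of libraries was not counted. The part of FOXF1 or HRAS in the BGN levels was not tested.

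Promoter sequence was at hand for 6 of the 8 genes, from RefSeq (GRCh38.p14), as 250 bases before and 50 bases after the start of each gene. None was at hand for LUM or DCN, so nothing is known here of the motifs in their promoters. BGN is the only member with a promoter at hand that was above the floor in every library, and its 250 bases before the start (chrX:153494730-153494979, plus strand) are shown with the GC boxes in capitals (GGGCGG on either strand, the sequence that Sp1-type factors bind).
BGN promoter: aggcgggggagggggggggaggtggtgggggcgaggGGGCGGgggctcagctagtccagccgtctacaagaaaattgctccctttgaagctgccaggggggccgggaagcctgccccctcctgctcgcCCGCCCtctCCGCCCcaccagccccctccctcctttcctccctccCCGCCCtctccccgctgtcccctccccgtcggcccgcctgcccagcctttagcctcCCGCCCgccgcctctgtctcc
The BGN promoter had 71.7% G and C and held 5 GC boxes, and 45.0% of the 35116 promoters searched held at least 1. The AP-1 motif TGANTCA (in 7.71% of promoters), the forkhead motif TGTTTAC (3.42%) and the TATA box TATAAA (11.5%), each searched on both strands, had no match in it. No AP-1 or forkhead match of these letters was found in the promoters of FMOD, PRELP, PODN, ASPN or OGN either. The TATA box letters matched in FMOD (from base 74) and OGN (from base 51 or 172, by the window used). These matches, counted from the upstream end, were on the strand opposite to the gene. A match is a description of the letters in this window only.

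In relation to each other, BGN was the leading family member with sgRNA-NT and stood near LUM in the targeted libraries. BGN exceeded LUM by 1.13-fold with guide 69 and 1.22-fold with sgRNA-FOXF1 and was 0.848 of LUM with guide 71, against 8.70-fold with sgRNA-NT. The summed level of the 6 genes, floor values included, was 22.1 RPKM with guide 69, 20.3 RPKM with guide 71 and 36.3 RPKM with sgRNA-FOXF1, against 26.3 RPKM with sgRNA-NT. LUM made up 37.6%, 38.9% and 36.1% of this sum in the targeted libraries, against 8.75% with sgRNA-NT. BGN made up 42.5%, 33.0% and 44.1% of it, against 76.0% with sgRNA-NT.

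**Figure D2:**
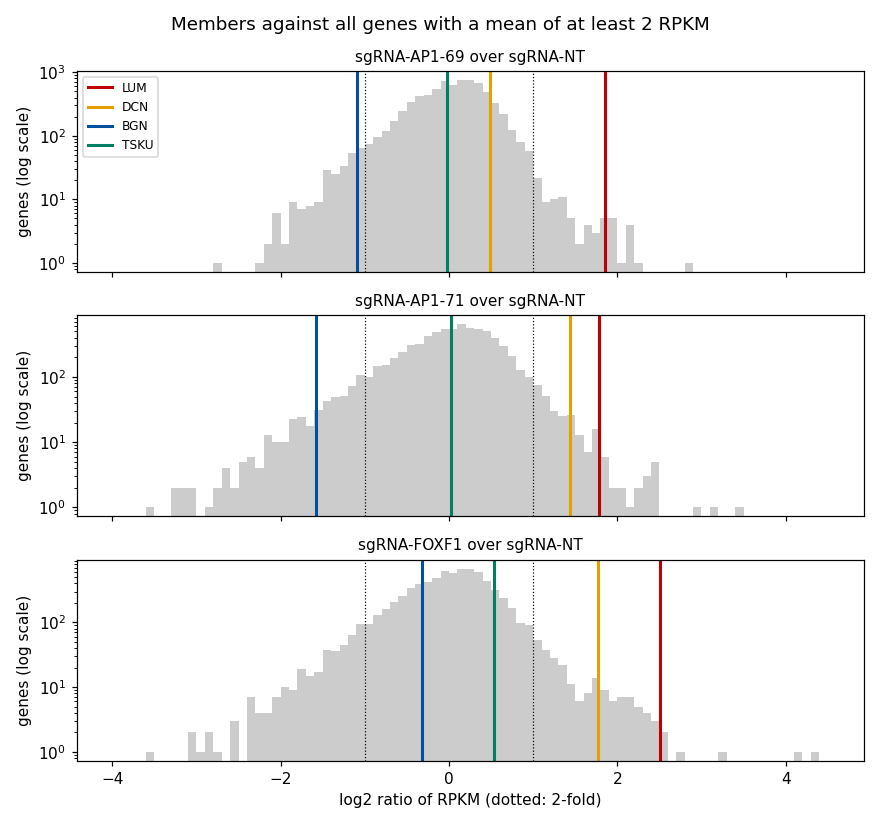
Number of genes on a log axis by log2 ratio to sgRNA-NT, with 1 panel per targeted library, over the 7596 genes compared, with LUM, DCN, BGN and TSKU as coloured lines and 2-fold differences as dotted lines. LUM lies in the upper tail at 1.85, 1.78 and 2.51, and BGN lies in the lower tail with the enhancer guides at -1.09 and -1.58 and nearer to the centre with sgRNA-FOXF1 at -0.32.

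The remaining members were at or near the floor. PRELP (ENSG00000188783), whose basic amino terminus binds heparan sulfate, was 1.0 RPKM with both enhancer guides and 1.8 RPKM with sgRNA-FOXF1, against 1.0 RPKM with sgRNA-NT, and was thus at least 1.8-fold higher with sgRNA-FOXF1. FMOD (ENSG00000122176), a keratan sulfate proteoglycan of tendon and cartilage, and PODN (ENSG00000174348) were 1.0 RPKM in all 4 libraries, so no fold is given. FMOD and PRELP are neighbours on chromosome 1, 124047 bp apart. Like LUM and DCN, PRELP was highest with sgRNA-FOXF1.

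Of the 9 further family members listed, TSKU and PODNL1 had a row. TSKU (ENSG00000182704), a secreted protein known in chick and frog to inhibit BMP signalling, was 5.0 RPKM with guide 69, 5.2 RPKM with guide 71 and 7.4 RPKM with sgRNA-FOXF1, against 5.1 RPKM with sgRNA-NT. Its log2 ratios to sgRNA-NT were -0.03 with guide 69, 0.03 with guide 71 and 0.54 with sgRNA-FOXF1. Across the 7596 genes compared, the SD of the ratio to sgRNA-NT was 0.48, 0.63 and 0.58 in the same order. Each TSKU ratio was smaller in size than the SD of its comparison. With sgRNA-FOXF1, TSKU held rank 1012 from the top. PODNL1 (ENSG00000132000) was 1.2 RPKM with sgRNA-FOXF1 and 1.0 RPKM in the other libraries.

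Transcript length moved with the ratios of the whole table and bears on LUM and DCN in different ways. Across the 7566 genes compared that had an annotated length, longer transcripts had lower ratios to sgRNA-NT, with a Spearman rho of -0.50 for guide 69, -0.44 for guide 71 and -0.45 for sgRNA-FOXF1. Genes are not independent replicates, and no p is given. LUM, at 2671 nt, is close to the median of 2902 nt, and subtracting the trend left its log2 ratios at 1.86, 1.80 and 2.49. BGN, at 2353 nt, was left at -1.12, -1.61 and -0.40.

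DCN has an annotated canonical transcript of 6850 nt in GENCODE v44, and by that length it ran against the trend. The RPKM values rest on GENCODE v25, so the length behind them may differ. Of the 632 compared genes with a transcript at least this long, 1 was at least 2-fold higher with guide 69, 9 with guide 71 and 7 with sgRNA-FOXF1, and 103, 160 and 143 were at least 2-fold lower. DCN itself is counted among the 9 and the 7. As DCN was picked for being higher, nothing is read from its place among these genes. After subtraction of the trend at this annotated length, the log2 ratio of DCN was at least 0.87 with guide 69, 1.89 with guide 71 and 2.20 with sgRNA-FOXF1. The uncorrected bounds were 0.49, 1.43 and 1.77, and both sets rest on a control at the floor. The origin of the length trend was not tested.

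As checks across the libraries, the 9 fibroblast markers listed were all in the table, with a summed level of 5096.5 to 5370.7 RPKM in the targeted libraries and 3576.3 RPKM with sgRNA-NT. Most of this sum was VIM (2644.9, 2644.9 and 2382.4 RPKM with guide 69, guide 71 and sgRNA-FOXF1, against 1775.3 RPKM with sgRNA-NT) and S100A4 (2053.4, 2295.5 and 1965.9 RPKM, against 1166.9 RPKM with sgRNA-NT). Some other markers of the list were lower, with log2 ratios of -1.19, -0.83 and -1.35 for PDGFRA and -0.64, -1.01 and -0.81 for DDR2. COL3A1 was higher, at 0.32, 0.36 and 0.86. A log2 ratio above 0 was seen in 4, 3 and 5 of the 9 markers, beside 55.0%, 55.1% and 53.9% of all genes compared. The list's medians were -0.35, -0.07 and 0.03. Of the smooth muscle markers, ACTA2 was 28, 25.1 and 25.8 RPKM, against 23.2 RPKM with sgRNA-NT, and CNN1 was at the floor throughout. None of the listed endothelial or melanocyte markers had a row, SOX9 was the only chondrocyte or tendon marker with one (1.6 to 3.1 RPKM in the targeted libraries, 2.5 RPKM with sgRNA-NT), and of the blood cell markers CD14 was at 6.0 to 8.5 RPKM in the targeted libraries and 9.8 RPKM with sgRNA-NT. The keratins KRT8 and KRT18 were present in every library, KRT8 at 7.6 to 10.2 RPKM in the targeted libraries and 4.5 RPKM with sgRNA-NT, and KRT18 at 135.5, 76.0 and 127.5 RPKM with guide 69, guide 71 and sgRNA-FOXF1, against 76.0 RPKM with sgRNA-NT. The 13 mitochondrially encoded mRNAs had median log2 ratios of -1.02, -1.54 and -0.77 with guide 69, guide 71 and sgRNA-FOXF1. The part of any of these in the LUM, DCN and BGN levels was not tested.

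The genes nearest to LUM in their ratios were sought among 5093 other genes averaging at least 5 RPKM, by the root mean square difference over the 3 log2 ratios. SERPINB2, which codes for plasminogen activator inhibitor 2, was the nearest at 0.226, with 113.5, 130.6 and 189.8 RPKM in the guide 69, guide 71 and sgRNA-FOXF1 libraries, against 39.1 RPKM with sgRNA-NT. KRTAP3-1, a hair keratin-associated protein, was at 0.308 with 65.7, 37.1 and 79.0 RPKM, against 14.2 RPKM with sgRNA-NT. Also among the 6 nearest genes were the ribosomal protein pseudogenes RPL15P3 (0.298), RPL37P2 (0.304) and RPL3P4 (0.348), whose values are uncertain because their reads can also match the parent genes.

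The genes that build, bind and cleave these proteoglycans were grouped into lists, and for each list the genes at least 2-fold higher or lower were counted, to be read against the shares of all genes given above. The first list held genes for linking the glycosaminoglycan chain to the core protein. Of 9 listed, 8 were compared, none was 2-fold higher in any library, and 1 was 2-fold lower with guide 71 and with sgRNA-FOXF1. That gene was XYLT1, which adds the first xylose, at 9.5, 5.1 and 4.8 RPKM with guide 69, guide 71 and sgRNA-FOXF1, against 15.3 RPKM with sgRNA-NT. After subtraction of the length trend XYLT1 was under 2-fold lower with guide 71 (-0.90) and stayed over it with sgRNA-FOXF1 (-1.05). The list's median log2 ratios were -0.30, -0.32 and -0.03, beside medians of 0.07, 0.08 and 0.05 over all genes compared. The median with sgRNA-FOXF1 turned to 0.01 after length correction. A log2 ratio above 0 was seen in 2, 1 and 4 of the 8 genes, beside 55.0%, 55.1% and 53.9% of all genes compared.

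For chondroitin and dermatan sulfate, the chains of decorin and biglycan, 14 of 19 listed genes were compared. With guide 69 none was 2-fold higher and 1 lower, with guide 71 1 higher and 3 lower, and with sgRNA-FOXF1 1 higher and 2 lower. CSGALNACT2, which begins chondroitin chain synthesis, was 2.5, 2.3 and 1.8 RPKM in these libraries, against 7.6 RPKM with sgRNA-NT, and was lower in all 3. The higher gene was UST, a uronyl 2-sulfotransferase, at 2.0, 4.0 and 3.6 RPKM, against 1.8 RPKM with sgRNA-NT. UST was under 2-fold with a pseudocount of 1 RPKM (0.84 with guide 71 and 0.72 with sgRNA-FOXF1), and with sgRNA-FOXF1 also after centring (0.95) and with a floor of 2 RPKM (0.85). DSEL, a homologue of dermatan sulfate epimerase, had log2 ratios of -0.73, -1.55 and -1.53, and the chondroitin 6-sulfotransferase CHST3 had -0.42, -1.11 and -0.97. The length trend brought DSEL (-0.91 and -0.95 with guide 71 and sgRNA-FOXF1) and CHST3 (-0.65 with guide 71) under 2-fold, while CSGALNACT2 stayed over it in all 3. The median of the list was -0.16, -0.30 and -0.07, and its sign turned with guide 71 and sgRNA-FOXF1 once the length trend was subtracted (0.03 and 0.14).

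For keratan sulfate, the chain of lumican and fibromodulin, 5 of 10 listed genes were compared and none was 2-fold lower. CHST2, a carbohydrate 6-sulfotransferase, was 14.8, 20.7 and 34.2 RPKM with guide 69, guide 71 and sgRNA-FOXF1, against 13.1 RPKM with sgRNA-NT, and was the only one 2-fold higher, with sgRNA-FOXF1 alone. Its libraries stood in the order of the DCN levels, and how many of all genes share that order was not counted. The median log2 ratios were 0.00, 0.49 and 0.26.

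The partner collagens differed among themselves. Of 10 listed, 9 were compared, of which 6 were 2-fold lower with guide 69, 5 with guide 71 and 3 with sgRNA-FOXF1, none was 2-fold higher, and 3 were lower in all 3. COL12A1, a collagen on the fibril surface, was 8.6, 5.7 and 7.0 RPKM, against 33.4 RPKM with sgRNA-NT. COL5A2, a chain of collagen V that limits fibril diameter, was 64.3, 61.9 and 49.2 RPKM, against 145.9 RPKM with sgRNA-NT. COL6A3, a chain of the microfibrillar collagen VI, was 62.9, 51.2 and 82.9 RPKM, against 180.8 RPKM with sgRNA-NT. COL3A1, the collagen III chain, stood apart at 40.3, 41.4 and 58.5 RPKM, against 32.3 RPKM with sgRNA-NT. The collagen I chains COL1A1 and COL1A2 had log2 ratios of -0.06 and 0.03 with sgRNA-FOXF1. With guide 69 and guide 71 they were lower, COL1A1 at -1.17 and -1.50 and COL1A2 at -0.60 and -0.78. These 3 genes were named after their values were seen. The collagen transcripts named are long, and the list's median log2 ratios of -1.17, -1.24 and -0.47 became -0.80, -0.79 and -0.24 after subtraction of the length trend. COL12A1 stayed over 2-fold lower in all 3 (-1.32, -1.76 and -1.56), while COL6A3 with guide 69 (-0.94) and with sgRNA-FOXF1 (-0.48) and COL5A2 with the enhancer guides (-0.80 and -0.79) did not.

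Of 28 proteoglycans listed outside the family, 11 were compared, of which 5, 6 and 4 were at least 2-fold lower and 0, 0 and 2 at least 2-fold higher with guide 69, guide 71 and sgRNA-FOXF1. With sgRNA-FOXF1, 5 of the 11 had a log2 ratio above 0, beside 53.9% of all genes compared. HSPG2 (perlecan, of the basement membrane) was 2.7, 1.0 and 4.5 RPKM, against 9.8 RPKM with sgRNA-NT, and was thus at least 9.8-fold lower with guide 71, where it stood at the floor. CD44, the hyaluronan receptor, was 162.7, 145.6 and 145.1 RPKM, against 364.0 RPKM with sgRNA-NT. The 2 genes higher with sgRNA-FOXF1, named after their values were seen, were the syndecans SDC1 and SDC2, cell-surface heparan sulfate proteoglycans, with log2 ratios of 1.71 and 1.02. With guide 69 and guide 71 they were also above 0, SDC1 at 0.64 and 0.39 and SDC2 at 0.74 and 0.98. The length trend ended the 2-fold difference of AGRN, COL18A1 and HSPG2 with sgRNA-FOXF1 (-0.68, -0.84 and -0.35) and of CD44 with both enhancer guides (-0.88 with guide 69, and just inside the line with guide 71). The list's median log2 ratios were -0.81, -1.32 and -0.22, and the last turned to 0.06 after length correction.

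Receptors and ligands of these proteoglycans were mostly lower. Of 24 listed, 10 were compared, of which 6, 7 and 7 were at least 2-fold lower with guide 69, guide 71 and sgRNA-FOXF1, 0, 1 and 1 were higher, and 6 were lower in all 3. EGFR was 3.2, 3.0 and 3.0 RPKM, against 10.9 RPKM with sgRNA-NT, and stayed over 2-fold lower after subtraction of the length trend (-1.21, -1.18 and -1.25). LRP1, an endocytic receptor that takes up decorin, was 12.6, 6.9 and 18.5 RPKM, against 44.6 RPKM with sgRNA-NT. ITGA2, the alpha chain of a collagen-binding integrin, was 19.2, 14.2 and 8.6 RPKM, against 49.0 RPKM with sgRNA-NT. FBN1, a microfibril protein, was 7.8, 7.0 and 9.2 RPKM, against 21.6 RPKM with sgRNA-NT. The length trend ended the 2-fold difference of FBN1 in all 3 (-0.84, -0.84 and -0.54), of LRP1 with sgRNA-FOXF1 (-0.48) and of ITGA2 with guide 69 (-0.90), and it moved the list's medians of -1.16, -1.36 and -1.26 to -0.84, -0.91 and -0.85. The 1 higher gene, named after its value was seen, was BMP4, with log2 ratios of 0.74, 1.0 and 1.18.

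Of 14 proteases listed as cleaving proteoglycans of the matrix, 6 were compared, of which 1, 2 and 2 were at least 2-fold lower and none higher. MMP3 (stromelysin 1), which cleaves decorin, was 59.5, 50 and 34.2 RPKM with guide 69, guide 71 and sgRNA-FOXF1, against 146.6 RPKM with sgRNA-NT, and was the one lower in all 3. The other lower gene was ADAMTS1, a secreted metalloproteinase, at 10.2, 5.1 and 5.9 RPKM, against 13.3 RPKM with sgRNA-NT, and with sgRNA-FOXF1 the length trend brought it under 2-fold (-0.88). HTRA1, a secreted serine protease, was 54.3, 44.3 and 126.2 RPKM, against 66.2 RPKM with sgRNA-NT. In HTRA1, as in BGN, sgRNA-FOXF1 lay above both enhancer guides. The list's median log2 ratios were -0.42, -0.77 and -0.11, and the last came to 0.00 after length correction. MMP14, a membrane-bound metalloproteinase, was 356.8, 343.3 and 512.0 RPKM, against 559.0 RPKM with sgRNA-NT. This is the same order of libraries as BGN, an order whose share among all genes was not counted.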

How the data were processed

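RNA was sequenced from BJ-indRAS G12V cells after 14 days of 4-OHT, with 1 library for each of 4 conditions. The authors mapped 65 bp single reads with TopHat2 (hg19), assigned them to genes with HTSeq-count, and deposited RPKM values (GENCODE v25 annotations) that were quantile-normalized, rounded to 1 decimal and raised to a floor of 1. For neither tool is a version given in the sources used here, and the RNA reagents and library kits named in the labels differ from those in the study's methods. The log2 ratios that the authors also deposited were not used.

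Log2 ratios were recomputed from the RPKM values without a pseudocount for 7596 genes averaging at least 2 RPKM, and a 2-fold difference was the rule for counts. No test was run, with 1 library per condition. Depth is unknown and no interval is given. Transcript lengths and positions came from GENCODE v44 lifted to GRCh37, and the length trend was a spline with 5 knots (scikit-learn 1.9.0, pandas 2.3.3, scipy 1.17.1). The steps were tested on simulated data. Promoters came from RefSeq (GRCh38.p14). Alternatives were a pseudocount, centring, length, another floor, another filter and another fold.

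The members and gene lists were chosen with earlier results of these data known. Named genes are the members and other family members present, up to 4 genes of each list whose log2 ratios were largest on average in absolute size, the 6 genes nearest to LUM, of which 1 is not reported here, and FOXF1 and HRAS. Genes outside this rule are the neighbours of LUM and DCN on chromosome 12, the cell type markers, and COL1A1, COL1A2, COL3A1, SDC1, SDC2 and BMP4, which were named after their values were seen.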

Additional observations from a re-analysis of the deposited data

How the results depend on the processing

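LUM was over 2-fold higher than with sgRNA-NT in every alternative run, and no alternative turned the direction of LUM or DCN. Of 24 alternative values for LUM and DCN, 13 lay within 0.29 of the value given. That is the SD of the log2 ratio of guide 71 to guide 69 across genes. Part of this count was fixed in advance. Centring subtracts only 0.07, 0.08 and 0.05, so its 6 values had to lie within 0.29. A floor of 2 RPKM cannot change LUM, whose lowest level was 2.3 RPKM, which fixed 3 more. Values below run in the order guide 69, guide 71, sgRNA-FOXF1, each over sgRNA-NT. A pseudocount of 1 RPKM gave LUM log2 ratios of 1.49, 1.43 and 2.10, and gave DCN 0.89 with guide 71 and 1.14 with sgRNA-FOXF1. Length correction, with the annotated length of 6850 nt, gave DCN at least 0.87, 1.89 and 2.20. A floor of 2 RPKM gave DCN 0, 0.43 and 0.77, since 1.4 RPKM then lies at the floor. DCN was thus under 2-fold with guide 71 with either the pseudocount or the higher floor, and with sgRNA-FOXF1 with the higher floor.

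Counts of genes moved by over 1.5 times in 27 of 56 alternatives. Genes at least 2-fold higher numbered 39, 120 and 127 with the pseudocount and 38, 123 and 105 with a mean of at least 5 RPKM, against 102, 289 and 243. With guide 69 they numbered 63 after centring and 51 with a floor of 2 RPKM. Genes at least 2-fold lower numbered 128, 300 and 190 after length correction and 160, 306 and 214 with a mean of at least 5 RPKM, against 251, 485 and 377, and 235 with the pseudocount for sgRNA-FOXF1. A 1.5-fold rule gave 621, 1067 and 883 higher and 754, 1117 and 1005 lower. For guide 71 over guide 69, with 23 higher and 15 lower, the pseudocount gave 14 and 7, the 1.5-fold rule 183 and 216, no filter 44 higher, and a mean of at least 5 RPKM 8 lower.

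The alternatives for lists and other named genes were added after the data had been seen. Of these, 98 of 108 list medians and 414 of 480 gene values lay within 0.29. Among them, 27 list medians and 120 gene values came from centring and had to lie within 0.29. The causes were not tested. No paired analysis was possible because each condition has 1 library. Values near the floor of 1 RPKM, which include DCN and PRELP, are limited by the rounding and the floor, and no error from replicate cultures can be given for any gene.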
